A study of Mus musculus with 90 samples.

Results

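The 8 genes Tap1, Tap2, Tapbp, Tapbpl, Erap1, Calr, Canx and Pdia3, which encode the machinery for peptide transport into the endoplasmic reticulum (ER) and for loading of MHC class I, were taken by name from the 53697 gene rows of a count table, and all 8 were found. The table holds 90 samples of 2 mouse tumour cell lines, YUMM2.1 (melanoma) and CT26 (colon carcinoma), read by 3′ digital gene expression. In each line 15 groups of 3 replicates were measured. Controls, which the labels give as BSA without IFNγ, were taken at 0, 1, 2 and 3 weeks. Naive cells received 50 IU/mL IFNγ for 2 h or 24 h at 0 weeks. Chronic exposure, at the same dose, lasted 1, 2 or 3 weeks, and samples came from cells without rechallenge or after 2 h or 24 h of fresh IFNγ. Both lines are cultures of tumour cells alone, without the other cells of a tumour.

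MHC class I molecules show peptides from inside the cell to CD8 T cells. The proteasome cuts proteins into peptides, the transporter formed by TAP1 and TAP2 pumps them across the ER membrane, and the aminopeptidase ERAP1 trims them there. Tapasin (Tapbp) holds an empty class I molecule beside the transporter, together with calreticulin (Calr) and the disulfide isomerase ERp57 (Pdia3), while calnexin (Canx) binds newly made class I heavy chains earlier. TAPBPR (Tapbpl) is a tapasin relative that edits peptides away from the transporter. IFNγ induces the transcription factor IRF1, and TAP1, TAP2, tapasin and ERAP1 are textbook targets of the cytokine, whereas calreticulin, calnexin and ERp57 are general folding factors of the ER.

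Total counts per sample lay between 274719 and 3161276 in YUMM2.1 and between 295157 and 2205285 in CT26. The 3 shallowest samples, under 25% of their line's median, were each a replicate 3 of chronically exposed cells without rechallenge, at 3 weeks in YUMM2.1 and at 1 and 3 weeks in CT26. The melanocyte markers, 7 genes, summed to 16.4 to 58.9 CPM, counts scaled to a common library size, in YUMM2.1. Sox10 made up most of that sum, at a median of 27.1 CPM, while Tyr and Pmel had medians of 0. Mlana and Tyrp1 had under 10 counts over all samples of the line. Mitf and Dct had medians of 2 and 0.648 CPM in YUMM2.1 and of 2.56 and 1.94 CPM in CT26. Of 8 epithelial markers, 6 had under 10 counts in CT26, among them Epcam and Cdh1, and the summed level was 42.6 to 124 CPM. Summed immune cell markers did not exceed 22 CPM in any sample, and 5 of the 8 had under 10 counts in each line. Summed fibroblast markers (6 genes) were at 57.5 to 179 CPM in YUMM2.1, where Col1a1 and Dcn had under 10 counts, and at 34 to 168 CPM for CT26, where Lum did; their part in the results was not tested. CPM here are on library sizes scaled by TMM within a line. Counts at the 3′ end do not rank genes against each other, and levels are therefore compared within a gene only.

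On the GRCm38 build of the mouse genome Tap1 lies at chr17:34187553-34197225, Tap2 at chr17:34203527-34216321 and Tapbp at chr17:33915899-33929292, all on the plus strand of the MHC region. Erap1 lies at chr13:74639568-74693201 (plus), Tapbpl at chr6:125223933-125231860 (minus), Calr at chr8:84841850-84846934 (minus), Canx at chr11:50293961-50325673 (minus) and Pdia3 at chr2:121413775-121438687 (plus). The window of 250 bases before the RefSeq start (GRCm38.p6) was searched on both strands for 6 of the 8 genes: all but Tap2 and Tapbpl. The motifs reported are the IRF-type core GAAANNGAA and the ER stress response element, which is CCAAT, 9 bases of any kind, then CCACG. The latter occurred in 0.113% of all 32851 promoter windows, and in those of Calr and Canx. The IRF-type core occurred in 7.13% of all windows and in that of Erap1, directly before the start. Tap1 and Tapbp, which IFNγ also raised, and the folding factor Pdia3 had neither motif in their windows. The 3 matched stretches are shown. Canx and Calr are folding factors that the main edgeR fit called in no comparison of IFNγ with a control, and Erap1 was raised by IFNγ. Each stretch is written 5′ to 3′ on the gene's strand, with the match in capitals.
Canx, chr11:50325795-50325824, minus strand: tattgaCCAATCACCACGCTCCACGaagaa
Calr, chr8:84847070-84847099, minus strand: acaacgCGTGGTCGACCCTCATTGGcccat
Erap1, chr13:74639823-74639852, plus strand: cacgtgccctgccggtccaccTTCACTTTC
In Calr and Erap1 the match is the reverse complement of the motif as spelled above. The Erap1 stretch lies inside the first exon of Erap1 in the GENCODE M21 annotation. A match is a description of letters, and no binding was measured.

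In naive cells, 24 h of IFNγ raised both subunits of the peptide transporter in both lines. Tap1, which encodes the first subunit, was at 0.546, 0 and 0.644 CPM in the untreated YUMM2.1 samples and at 8.99, 8.20 and 19.1 CPM after 24 h, and the groups did not overlap. The summed counts were 61 against 2, a ratio of 30.4 with an exact 95% counting interval of 8.06 to 256. The fitted log2 fold change was 4.59 ± 0.77 (SE; edgeR quasi-likelihood test, adjusted p = 6.95e-05), and the call was lost without replicate 3 (adjusted p = 0.0528). In CT26 Tap1 was already counted in every untreated sample, at 3.55, 1.25 and 2.97 CPM, and it was at 13.9, 25.5 and 26.8 CPM after 24 h. That is a log2 fold change of 3.12 ± 0.57 (SE; edgeR, adjusted p = 0.000181).

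Tap2, the other subunit of the transporter, had no count in any untreated YUMM2.1 sample at 0 weeks. After 24 h it was at 13.5, 5.12 and 7.63 CPM, from 35 counts, at least 11.6-fold higher than a floor of 3 counts over the control group (edgeR, adjusted p = 0.00129), and the call was lost without replicate 1 and without replicate 3 (adjusted p up to 0.144). In CT26 Tap2 was at 8.51, 5.62 and 6.54 CPM in untreated samples and at 17.8, 22.1 and 40.9 CPM after 24 h. The log2 fold change was 2.09 ± 0.40 (SE; edgeR, adjusted p = 0.000407), and without replicate 3 it was 1.51 and no longer called (adjusted p = 0.115). The treated and untreated samples did not overlap in either line.

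Tapasin and the trimming peptidase moved with the transporter. Tapbp was at 3.82, 7.33 and 3.22 CPM in untreated YUMM2.1 and at 70.8, 47.1 and 58.1 CPM after 24 h, a log2 fold change of 3.73 ± 0.36 (SE; edgeR, adjusted p = 7.87e-11). In CT26 it went from 12.1, 18.1 and 16.6 CPM to 87.1, 112 and 126 CPM (log2 fold change 2.81 ± 0.25, SE; edgeR, adjusted p = 1.2e-11). Tapbp gave the most precise of the induced changes in CT26. Erap1 was at 4.36, 3.66 and 5.15 CPM in untreated YUMM2.1 and at 68.5, 65.6 and 39.9 CPM after 24 h (log2 fold change 3.62 ± 0.31, SE; edgeR, adjusted p = 1.24e-12). In CT26 it went from 2.84, 6.25 and 5.94 CPM to 63.4, 23.8 and 27.5 CPM, with 1 treated sample far above the other 2 (log2 fold change 2.80 ± 0.34, SE; edgeR, adjusted p = 4.9e-08). All treated samples of both genes lay above all controls.

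Thus 4 of the 8 genes rose at 24 h in each line, and none fell, against 0.886% of 9589 genes called in YUMM2.1 and 2.04% of 8516 genes called in CT26. At 2 h, 0 of the 8 genes passed in either line with edgeR or with DESeq2, where 0.24% and 0.235% of genes did with edgeR; an unadjusted p below 0.05 was reached by 3 of the 8 in YUMM2.1 and by 1 in CT26. The level of Erap1 at 2 h in YUMM2.1 was 11.1, 12.4 and 9.65 CPM, above all 3 controls, with an unadjusted p of 0.00121 and an adjusted p of 0.313 (edgeR). Tap1 in CT26 was likewise above all controls at 2 h, at 5.81, 8.12 and 9.35 CPM (adjusted p = 1, edgeR). Irf1, by contrast, was already up by 4.07 ± 0.21 in YUMM2.1 and by 3.46 ± 0.22 in CT26 on the log2 scale at 2 h (SE; edgeR, adjusted p = 2.21e-19 and 1.79e-15).

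**Figure D1:**
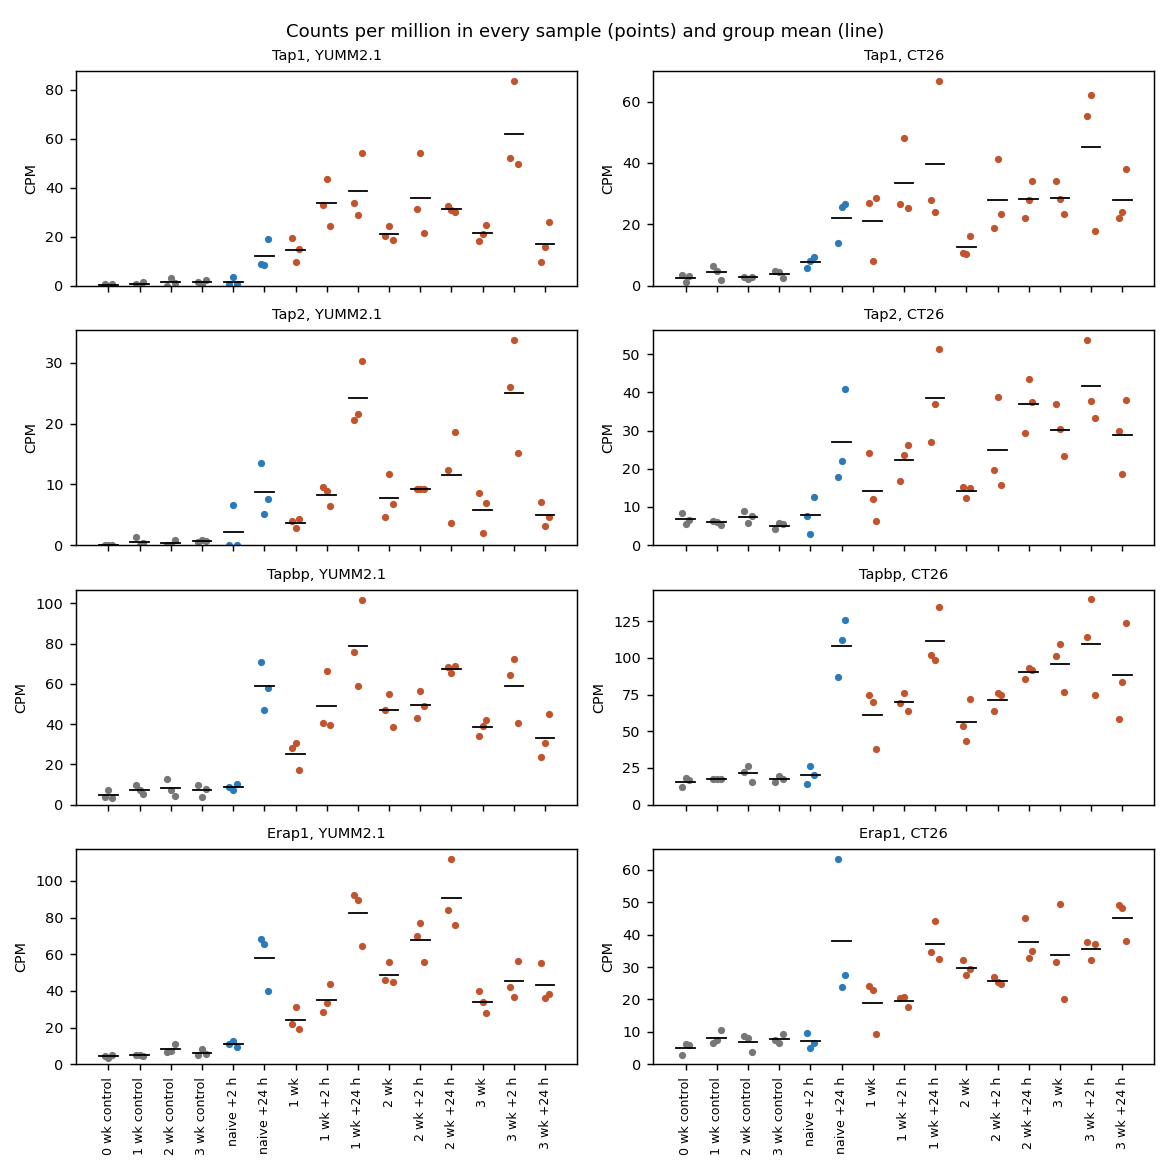
Level in CPM (linear axis from 0, its own scale in each panel) of Tap1, Tap2, Tapbp and Erap1 in every sample of YUMM2.1 (left) and CT26 (right), with 3 points and a mean line for each of 15 groups; grey marks controls, blue naive cells given IFNγ, and orange chronically exposed cells. Controls lie at the bottom, naive 2 h samples overlap with them in most panels, and the highest YUMM2.1 mean of Tap1 (61.8 CPM) is that of 3 weeks with a 2 h rechallenge.

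Erap1 shares 834 exonic bases with Cast, which encodes calpastatin, on the opposite strand, reaching to the 3′ end of Erap1. The sources used here do not state whether counting used strand. Cast was at 40.0 to 54.1 CPM as group means in YUMM2.1 and at 39.4 to 52.6 CPM in CT26 and was called in none of the comparisons. Tap1 shares 212 exonic bases with Psmb9 on the opposite strand, at the far end from its 3′ end. In the last 500 bases of their longest coding transcript, 31-base words also found in transcripts of other genes made up 25.7% for Tapbpl, 5.11% for Erap1 and 0% for the other 6. The counts of Tapbpl are uncertain in this respect, and the part of shared words in its level was not tested.

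Chronic IFNγ raised genes of the transporter, tapasin and Erap1 over the time-matched controls, and the main edgeR fit called no other of the 8. DESeq2 called Tapbpl lower in CT26 at 3 weeks. That call, and other alternatives that called Tapbpl, Canx or Pdia3 there, are described with the folding factors. In YUMM2.1, 3 of the 8 genes were called at 1 week, 4 at 2 weeks and 3 at 3 weeks, against 0.73%, 1.12% and 0.97% of all genes tested. Tap1, Tapbp and Erap1 were called at each of these times. Tap1 was at 18.3, 21.0 and 24.5 CPM after 3 weeks and at 1.33, 0.780 and 2.41 CPM in the 3-week controls (log2 fold change 3.65 ± 0.53, SE; edgeR, adjusted p = 4.77e-06). Tapbp was at 34.2, 39.0 and 42.1 CPM against 9.76, 3.90 and 7.93 CPM (log2 fold change 2.37 ± 0.33, SE; edgeR, adjusted p = 1.16e-06). Erap1 was at 39.7, 34.03 and 28.0 CPM against 4.88, 8.18 and 5.52 CPM (log2 fold change 2.51 ± 0.28, SE; edgeR, adjusted p = 8.36e-09). In the main fit Tap2 was called at 2 weeks alone, from 34 counts against 1 (edgeR, adjusted p = 0.027). The ratio was 24.4 with a counting interval of 4.09 to 992, and the call was lost without any one replicate number and with DESeq2. At 3 weeks Tap2 was at 8.55, 2.00 and 7.01 CPM, all above the controls of 0.444, 0.780 and 0.689 CPM (edgeR, adjusted p = 0.0741). It was called there without a filter on low counts and without replicate 2 (edgeR, adjusted p = 0.00678 and 0.00931).

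In CT26 the count was 2 at 1 week (Tap1 and Tapbp), 2 at 2 weeks (Tapbp and Erap1) and 4 at 3 weeks (Tap1, Tap2, Tapbp and Erap1), against 0.728%, 1.67% and 7.23% of all genes tested. The Tap1 call at 1 week was lost without replicate 1 and without replicate 3 (edgeR, adjusted p up to 0.633). Erap1 at 1 week had a log2 fold change of 1.30 (edgeR, adjusted p = 0.0554) and was called without the shallow samples, without replicate 3 and with library totals alone. Tap1 at 2 weeks had a log2 fold change of 2.18 (edgeR, adjusted p = 0.0659) and was called by DESeq2 (adjusted p = 0.0283), without a filter on low counts and with only the compared groups fitted. The 3-week background is wide, and its split depends on the scaling: 47.6% of the called genes were higher with TMM and 79.3% with library totals alone, which moved the median gene by 0.203 on the log2 scale. Tap1 was at 34.2, 28.2 and 23.4 CPM after 3 weeks and at 4.91, 4.43 and 2.46 CPM in the controls (log2 fold change 2.97 ± 0.52, SE; edgeR, adjusted p = 7.43e-05). Tap2 was at 36.9, 30.4 and 23.4 CPM against 4.09, 5.91 and 5.41 CPM (log2 fold change 2.59 ± 0.42, SE; edgeR, adjusted p = 1.8e-05). The groups were far apart for both subunits of the transporter. Tapbp was at 101, 109 and 76.9 CPM against 15.5, 19.2 and 17.2 CPM (log2 fold change 2.51 ± 0.26, SE; edgeR, adjusted p = 3.93e-10). Erap1 was at 31.6, 49.6 and 20.1 CPM against 7.37, 6.65 and 9.34 CPM (log2 fold change 2.17 ± 0.32, SE; edgeR, adjusted p = 2.97e-06). The shallow sample of this group was the lowest of its 3 for each of these 4 genes, and all 4 calls stood without it.

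The 3-week effect against the effect of 24 h in naive cells was called for 0 of the 8 genes in either line by edgeR or DESeq2 (2 in YUMM2.1 and 3 in CT26 at an unadjusted p below 0.05), where edgeR called 0.0521% and 0.0117% of all genes. The latter share is 1 gene and was not stable: DESeq2 called 127 genes in CT26, and edgeR called 262 without replicate 3, with Tapbpl and Pdia3 lower among them. Library totals alone moved the median gene by 0.22 in this comparison in CT26. For Tapbp in YUMM2.1 the difference was -1.36 on the log2 scale, with a 95% interval of -2.42 to -0.30 and an adjusted p of 0.973 (edgeR). In CT26 the interval for Tapbp was -1.06 to 0.45. These comparisons do not show that the effects were equal. From 2 to 3 weeks of IFNγ, 0 of the 8 genes were called in YUMM2.1 by edgeR or DESeq2, and 0 at an unadjusted p below 0.05 (background 0.073%). In CT26, 2 were (background 3.17%): Tapbp was higher at 3 weeks by 0.78 ± 0.23 and Canx by 0.66 ± 0.19 on the log2 scale (SE; edgeR, adjusted p = 0.0423 and 0.0488). Both sit close to the threshold; the Tapbp call was lost in 3 of 9 alternatives and the Canx call in 6. Of all called genes there 50.4% were higher with TMM and 73.4% with library totals alone, which moved the median gene by 0.14. The 3-week controls did not differ from the 0-week controls for any of the 8 genes at the threshold (0 called in each line by edgeR and DESeq2, 0 at an unadjusted p below 0.05, background 0.521% in YUMM2.1 and 0.916% in CT26).

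**Figure D2:**
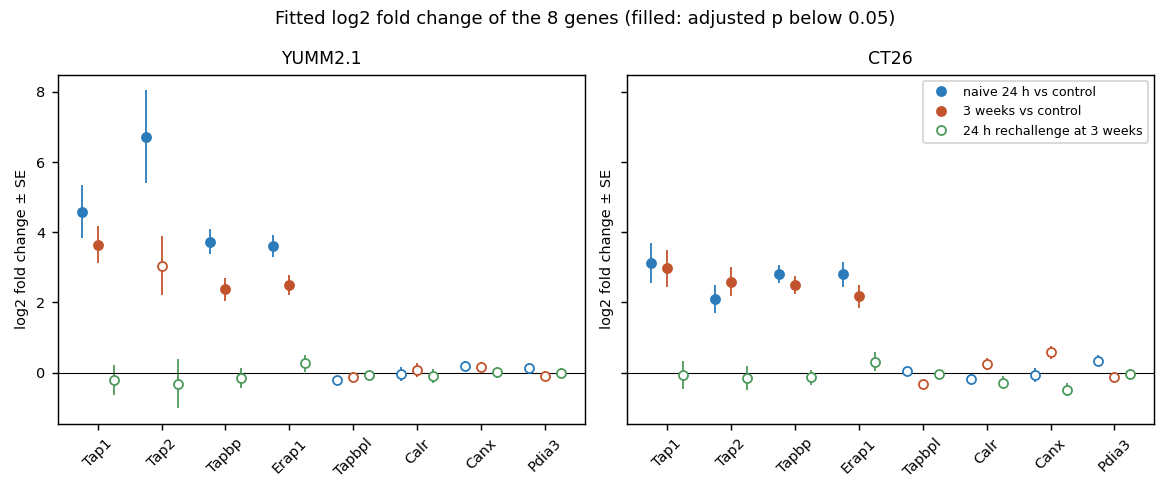
Fitted log2 fold change with its standard error (vertical axis) of the 8 genes in 3 comparisons, in YUMM2.1 (left) and CT26 (right); filled points passed an adjusted p of 0.05. Tap1, Tap2, Tapbp and Erap1 are filled for naive 24 h in both panels, no gene is filled for the 24 h rechallenge at 3 weeks, and Tap2 in naive YUMM2.1 cells stands on a control group without counts, so that its height depends on the prior count.

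Fresh IFNγ for 2 h on chronically exposed cells raised Tap1 in YUMM2.1 at 3 weeks. Its level was 52.2, 83.6 and 49.8 CPM after the rechallenge and 18.3, 21.0 and 24.5 CPM before it (log2 fold change 1.60 ± 0.38, SE; edgeR, adjusted p = 0.0182), the highest group mean of Tap1 in that line. The call was lost without replicate 1 and without replicate 2. Tap2 in the same samples was at 26.1, 33.7 and 15.1 CPM against 8.55, 2.00 and 7.01 CPM, without overlap (edgeR, adjusted p = 0.0786). In all, 1 of the 8 genes was called at 3 weeks (background 1.08%), and 0 at 1 week (0.615%) and at 2 weeks (0.428%), where 3 and 2 of the 8 had an unadjusted p below 0.05. In CT26 the 2 h rechallenge gave 0 of the 8 genes at 1 week, 2 weeks and 3 weeks (background 0.376%, 0.305% and 0.0117%), and 1, 2 and 1 at an unadjusted p below 0.05. DESeq2 called 0 wherever edgeR did among these rechallenges. Tap1 in CT26 at 3 weeks was at 55.3, 62.2 and 18.0 CPM against 34.2, 28.2 and 23.4 CPM, groups that overlapped. After 3 weeks, the size of the 2 h response against its size in naive cells was called different for 0 of the 8 genes in either line by edgeR or DESeq2 (background 0.115% and 0.211%), with unadjusted values below 0.05 for 1 gene of YUMM2.1 and 0 of CT26.

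Fresh IFNγ for 24 h raised the transport genes at 1 week in YUMM2.1 and had no called effect on any of the 8 genes at 3 weeks in either line. At 1 week in YUMM2.1, 4 of the 8 were called (background 1.42%). Tap2 was at 20.5, 21.6 and 30.4 CPM against 4.05, 2.77 and 4.26 CPM (log2 fold change 2.75 ± 0.61, SE; edgeR, adjusted p = 0.00521), a call that was lost without replicate 1 and without replicate 3 (adjusted p up to 0.135). Erap1 was at 92.4, 89.7 and 64.6 CPM against 21.8, 31.05 and 19.2 CPM (log2 fold change 1.71 ± 0.23, SE; edgeR, adjusted p = 8.72e-07). Tapbp rose by 1.54 ± 0.27 and Tap1 by 1.42 ± 0.39 on the log2 scale (SE; edgeR, adjusted p = 0.000158 and 0.0486), and the Tap1 call was lost in 7 of 9 alternatives. At 2 weeks Erap1 alone was called (background 0.615%), from 45.7, 55.7 and 45.1 CPM to 83.9, 112 and 75.7 CPM (log2 fold change 0.88 ± 0.21, SE; edgeR, adjusted p = 0.0286), and that call was lost in 5 of 9 alternatives.

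In CT26 the 24 h rechallenge gave 0 of the 8 genes at 1 week with edgeR or DESeq2 (background 1.32%), and 5 at an unadjusted p below 0.05; all 3 rechallenged samples of Tap2, Tapbp and Erap1 lay above their reference (adjusted p = 0.116, 0.087 and 0.244, edgeR). At 2 weeks Tap2 was called (background 0.658%), at 29.4, 43.6 and 37.6 CPM against 15.2, 12.3 and 15.02 CPM (log2 fold change 1.35 ± 0.34, SE; edgeR, adjusted p = 0.0395). This call was lost in 5 of 9 alternatives. At 3 weeks 0 of the 8 genes were called in YUMM2.1 and 0 in CT26, where the background over all genes was 0% in both lines; 351 and 439 genes had an unadjusted p below 0.05, among them 0 and 1 of the 8, and DESeq2 likewise called 0 genes in each. Tap1 in YUMM2.1 was at 9.69, 15.6 and 25.9 CPM after this rechallenge, a log2 fold change of -0.21 with a 95% interval of -1.05 to 0.63. In CT26 the interval for Tap1 was -0.89 to 0.75. For Tapbp, counted more deeply, the YUMM2.1 interval was -0.73 to 0.43 and the CT26 interval -0.58 to 0.31. A 2-fold rise, 1 on the log2 scale, lies outside each of these 4 intervals.

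The difference between the 24 h response at 3 weeks and that of naive cells was tested as an interaction. It was lower for 4 of the 8 genes in each line and higher for none, against 0.615% of genes called in YUMM2.1 and 1.2% in CT26. With 1 replicate number left out the count was 2 to 4 in YUMM2.1, where Tap1 and Tap2 were lost without replicate 1 or replicate 3, and 1 to 3 for CT26, where Tap1 was lost without replicate 1 or 2, Tap2 without any one and Erap1 without replicate 1. In YUMM2.1 Tap1 differed by -4.80 ± 0.91, Tapbp by -3.88 ± 0.48 and Erap1 by -3.35 ± 0.40 on the log2 scale (SE; edgeR, adjusted p = 0.000868, 8.21e-08 and 4.87e-08). In CT26 Tap1 differed by -3.19 ± 0.71, Tap2 by -2.23 ± 0.53, Tapbp by -2.94 ± 0.34 and Erap1 by -2.49 ± 0.44 (SE; edgeR, adjusted p = 0.00511, 0.0124, 1.58e-08 and 0.000189). Tap2 in YUMM2.1 was called too (adjusted p = 0.0144, edgeR), on a control group without counts. These differences share the naive samples with the 24 h comparison above and are not independent of it. They also differ in their starting level, since the cells without rechallenge at 3 weeks already carried these transcripts at 18.3 to 42.1 CPM in YUMM2.1 for Tap1, Tapbp and Erap1.

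**Figure D3:**
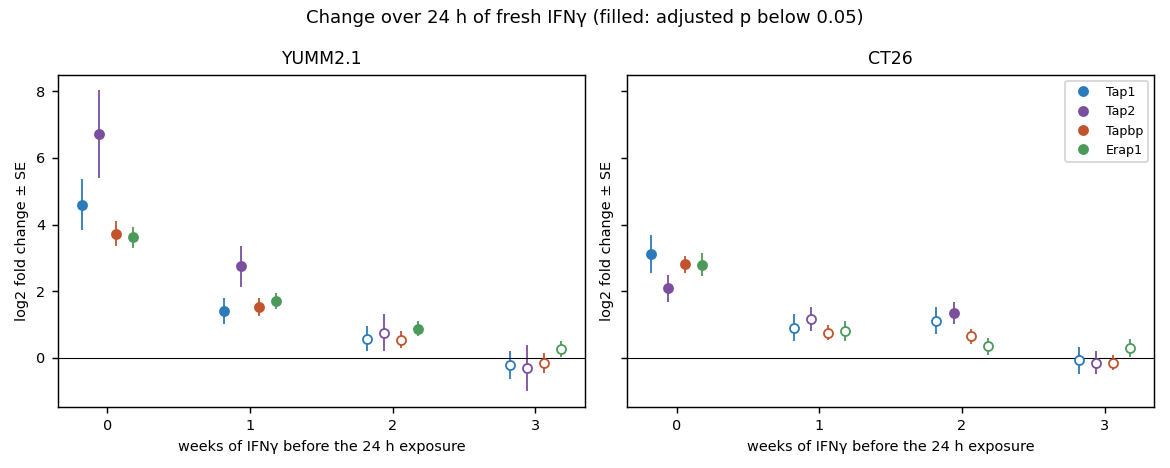
Fitted log2 fold change over 24 h of fresh IFNγ with its standard error (vertical axis) of Tap1, Tap2, Tapbp and Erap1, against the weeks of IFNγ that came before (0 is naive cells), in YUMM2.1 (left) and CT26 (right); filled points passed an adjusted p of 0.05. Naive cells give the highest points in both lines, and at 3 weeks every point is open and between -0.31 and 0.31.

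In the main edgeR fit calreticulin, calnexin, ERp57 and TAPBPR were not called in any comparison of IFNγ with a control, in either line. Some alternative fits called Canx, Pdia3 or Tapbpl in CT26, as given below. Calr was called in CT26 at the 24 h rechallenge at 2 weeks without replicate 3, higher by 0.54 on the log2 scale (edgeR, adjusted p = 0.0386). In the main fit that value was 0.37 (edgeR, adjusted p = 0.609). The ratio of the highest to the lowest of the 15 group means was 1.77 for Calr, 1.30 for Canx, 1.34 for Pdia3 and 1.55 for Tapbpl in YUMM2.1. In CT26 it was 1.73, 1.99, 1.70 and 1.44 for the same genes. Among the induced genes the ratio in YUMM2.1 was 16.5 for Tapbp and 20.6 for Erap1; none is given for Tap1 and Tap2, whose lowest groups had 2 and 0 counts. In CT26 it was 17.4 for Tap1, 8.10 for Tap2, 7.16 for Tapbp and 9.02 for Erap1. Calr, Canx, Pdia3 and Tapbpl were deeply counted, with no fewer than 23 counts in any sample. Calr was at 242, 203 and 242 CPM in untreated YUMM2.1 and at 184, 236 and 249 CPM after 24 h, and the 95% interval of its log2 fold change was -0.44 to 0.37. Pdia3 was at 639, 536 and 557 CPM and then at 648, 743 and 522 CPM (interval -0.16 to 0.43). Canx was at 131, 127 and 129 CPM and then at 140, 154 and 151 CPM, above all controls, with an interval of -0.08 to 0.48. A 2-fold change lies outside all 3 intervals.

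In CT26 Calr was at 178, 212 and 243 CPM untreated and at 147, 185 and 214 CPM after 24 h (interval -0.54 to 0.17). Pdia3 was at 409, 352 and 377 CPM and then at 554, 552 and 357 CPM (interval 0.04 to 0.65; edgeR, adjusted p = 0.35), and it was called without replicate 3, at 0.54 (adjusted p = 0.00321). At 3 weeks in CT26, Canx was at 77.3, 133 and 104 CPM against 63.0, 78.3 and 67.8 CPM in the controls (log2 fold change 0.57 ± 0.19, SE; edgeR, adjusted p = 0.0562), and library totals alone gave 0.78 with an adjusted p of 0.0207. Tapbpl in the same comparison was at 856, 816 and 1170.5 CPM, where the last is the shallow sample, against 3-week controls of 1304, 1132 and 1106 CPM. Its log2 fold change was -0.33 ± 0.11 (SE; edgeR, adjusted p = 0.0535), and DESeq2 called it at -0.31 (adjusted p = 0.0301). Without the shallow samples it was -0.49 (adjusted p = 0.00275), and with library totals alone -0.15 (adjusted p = 0.264). Without replicate 3, edgeR called both Tapbpl and Pdia3 lower in this comparison. Their log2 fold changes were then -0.55 and -0.39 (edgeR, adjusted p = 0.00187 and 0.0341). Tapbpl is the tapasin relative, and no comparison put it among the genes that rose. Its counts are uncertain through the shared words described above, so they do not show that Tapbpl itself was unchanged.

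**Figure D4:**
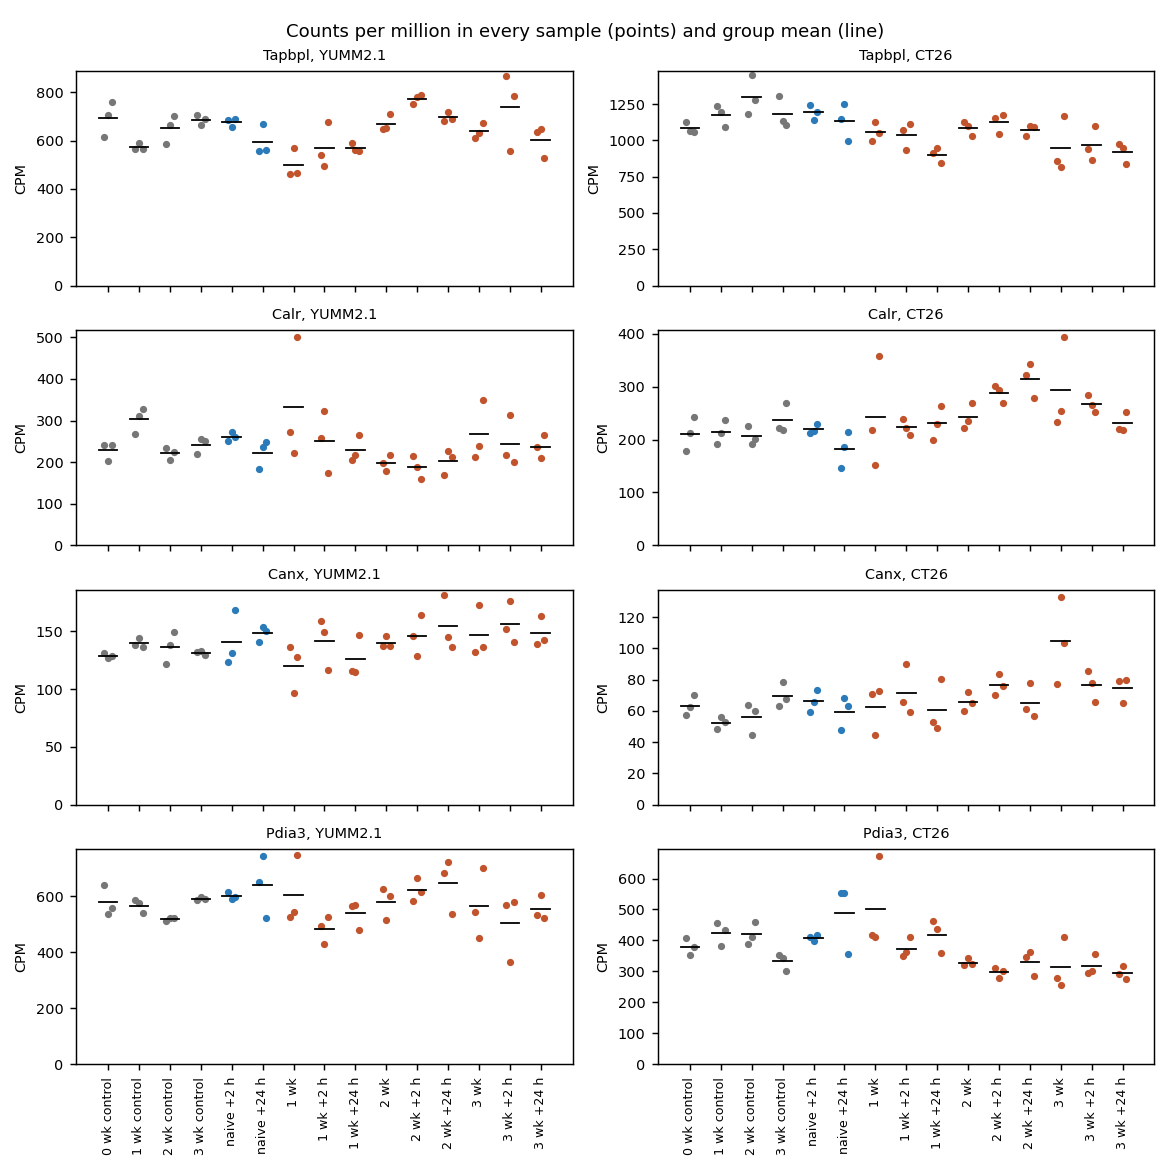
Level in CPM (linear axis from 0, its own scale in each panel) of Tapbpl, Calr, Canx and Pdia3 in every sample of YUMM2.1 (left) and CT26 (right), drawn as for the transport genes, with 3 points and a mean line for each of 15 groups; grey marks controls, blue naive cells given IFNγ, and orange chronically exposed cells. Control and exposed samples overlap in every panel, with 1 replicate of Calr at 500 CPM in YUMM2.1 at 1 week of IFNγ.

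Ordered by their group means, neighbouring groups overlapped in all 14 pairs for Calr, Canx, Pdia3 and Tapbpl in both lines. For Tap1, 12 of 14 neighbouring pairs overlapped in YUMM2.1, and the breaks fell below 2 weeks with a 24 h rechallenge and below naive 24 h. In CT26 the break for Tap1 fell below 2 weeks without rechallenge. Groups further apart in the order did separate: Tap1 in YUMM2.1 was at 49.8 to 83.6 CPM at 3 weeks with a 2 h rechallenge and at 8.20 to 19.1 CPM at naive 24 h. All 12 control samples of Tapbp in YUMM2.1 lay at 3.22 to 12.9 CPM with a median of 7.15, and the 33 exposed samples at 7.31 to 102 with a median of 44.9 CPM, so that the 2 h naive samples overlapped with controls. For Erap1 in CT26 the 12 controls lay at 2.84 to 10.7 with a median of 7.01 CPM, and the 33 exposed samples at 5.17 to 63.4 with a median of 29.5 CPM.

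Before any IFNγ the lines differed in 5 of the 8 genes, where 46% of the 10339 genes tested differed, so the count is not particular to them. Tap2 was not counted in YUMM2.1 and had 32 counts in CT26, at least 10.8-fold higher than a floor of 3 counts over the group (edgeR, adjusted p = 8.35e-06). Tapbp was higher in CT26 by 2.02 ± 0.41 and Tapbpl by 0.83 ± 0.12 on the log2 scale, and Canx was lower by 0.84 ± 0.16 and Pdia3 by 0.43 ± 0.15 (SE; edgeR, adjusted p = 3e-05, 1.72e-08, 8.34e-06 and 0.0142); the Pdia3 call was lost in 3 of 9 alternatives. Library totals alone moved the median gene by -0.165 in this comparison. The naive 24 h effect differed between lines for 0 of the 8 genes (background 0.087%), and the 3-week effect likewise for 0 (background 0.106%). DESeq2 called 0 in both, and 1 gene had an unadjusted p below 0.05 in each. The interval for Tapbp was -1.86 to 0.07 at 24 h and -0.70 to 1.09 at 3 weeks.

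Most other genes of class I presentation that were tested were called higher with IFNγ. Of 10 partner genes (the light chain B2m, class I heavy chains, the regulator Nlrc5, immunoproteasome subunits and the proteasome activator), 8 were called higher at naive 24 h in each line and 9 at 3 weeks in each line, and none lower, where 0.886% and 2.04% of all genes were called at naive 24 h and 0.97% and 7.23% at 3 weeks. H2-T23, a class I gene outside the classical heavy chains, was called at neither time. The list of partners was chosen with earlier results of these data known, so its count beside the all-gene share is not a test. The median log2 fold change over the list was 2.52 and 2.44 for the YUMM2.1 cells and 1.95 and 1.71 for the CT26 cells, beside medians over all genes of 0.0188, 0.00174, -0.0215 and 0.0156. Psmb9, an immunoproteasome subunit whose gene is head to head with Tap1, went from 0.953 ± 0.851 to 82.4 ± 10.5 CPM at naive 24 h in YUMM2.1 and from 3.28 ± 2.83 to 114 ± 8.49 CPM in CT26 (SD, n = 3). Psmb8, the neighbour between Tap1 and Tap2, went from 0.407 ± 0.705 to 24.6 ± 5.91 CPM and from 4.13 ± 2.62 to 44.0 ± 22.0 CPM. At 3 weeks H2-K1, a class I heavy chain, was at 7.58 ± 6.05 CPM in YUMM2.1 against 0.148 ± 0.256 CPM, and Psmb9 in CT26 was at 146 ± 20.7 against 4.59 ± 1.498 CPM. Nlrc5, the transactivator of class I genes, was at 9.12 ± 2.90 CPM against 0.182 ± 0.315 CPM at naive 24 h in YUMM2.1. Psme2, of the proteasome activator, went from 311 ± 25.4 to 1502 ± 57.1 CPM at naive 24 h in CT26.

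Other ER folding factors and other peptidases were mostly not called. Of 16 ER chaperones and glycan-processing factors tested in YUMM2.1, 0 passed at naive 24 h and 0 at 3 weeks, and of 15 in CT26 1 passed at each time. These were Hspa5, the ER chaperone BiP, by 0.54 ± 0.12 at naive 24 h, and Uggt1, the glycoprotein folding sensor, by 1.45 ± 0.44 at 3 weeks (SE; edgeR, adjusted p = 0.00245 and 0.0353). Hspa5 was lost without replicate 1 and without replicate 2, and Uggt1 with DESeq2, without any 1 replicate number and with only the compared groups fitted. Of other cytosolic and ER peptidases, 1 of 9 passed in YUMM2.1 at naive 24 h, Lap3, a leucine aminopeptidase, by 0.79 ± 0.17 (SE; edgeR, adjusted p = 0.00278; lost without replicate 1 and without replicate 2), and 0 at 3 weeks. In CT26 0 of 8 passed at either time.

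Over the 15 group means of a line, Tap1, Tap2, Tapbp and Erap1 followed each other closely, with Pearson r of 0.92 to 0.98 over their 6 pairs in YUMM2.1 and 0.91 to 0.97 in CT26. The points share libraries and the contrast between exposed and control cells. Among the 9589 genes of YUMM2.1, the 5 most like Tap1 were F830016B08Rik, H2-D1, Psmb8, 9330175E14Rik and Tgtp2 (r = 0.96 to 0.97), and in CT26 they were F830016B08Rik, Gm4070, Iigp1, Gbp7 and Rtp4 (r = 0.96 to 0.98). Tapbpl, in contrast, had an r of 0.0024 with Tap1 in YUMM2.1 and of -0.75 in CT26, and Canx had 0.37 and 0.48. Calr had -0.33 and 0.47, and Pdia3 -0.18 and -0.30.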

How the data were processed

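What the authors deposited is a matrix of raw counts, genes by samples, neither normalized nor pooled over replicates. The submitters' processing notes name Salmon 0.13.1 and mm10, and the study's methods name tximport; the annotation release and any use of molecular identifiers are not given in the sources used here. All 90 columns were matched to samples by their labels, with 0 columns unused. The study's methods state that outlier samples of both lines, more of them of CT26, were discarded, without naming them. All were kept here, and their part in the results was not tested.

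Counts were analysed in R 4.3.3 with edgeR 4.0.16 (filterByExpr, TMM, 15 groups of a line fitted together, or all groups of both lines for comparisons between lines). Quasi-likelihood tests were adjusted by Benjamini-Hochberg over 9589 genes in YUMM2.1, 8516 in CT26 and 10339 in both, at a threshold of 0.05, in 35 comparisons. Intervals of log2 fold changes used the standard error and the total degrees of freedom of the fit, residual and prior together. For groups of few counts the ratio of summed counts was given with an exact binomial 95% interval, which covers counting error only. Where the reference had no counts, its lower limit was given beside the ratio over a floor of 3 counts per group. That ratio covers no error. DESeq2 1.42.0 was an alternative. Log2 CPM for correlations used a prior count of 2. The edgeR step was tested on simulated data with 200 changed genes. For naive 24 h in YUMM2.1, 86% of 4-fold and 91% of 8-fold changes were recovered among 9253 genes, and in CT26 76% and 86% among 8159. Unchanged genes called in error numbered 4 in YUMM2.1 and 12 in CT26. The changed genes were drawn at random from those that passed the filter. These rates therefore do not describe genes with few control counts, such as Tap1 and Tap2 in YUMM2.1. All 8 genes passed the count filter in both lines. The filter used all groups of a line, and Tap1 and Tap2 in YUMM2.1 passed it through exposed groups. Their highest control samples were at 3.07 and 1.38 CPM.

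Totals of 274719 to 3161276 counts per sample leave genes of a few counts imprecise. Of 90 replicate pairs 0 were identical, and each differed by more than sampling noise (lowest chi-square per gene 1.96). The study describes its replicates as independent, and the labels do not say which came from separate cultures. Each p-value sets a difference against the spread between replicates, estimated over all groups fitted together. The named genes were the 8 members, Irf1 and 1 further gene that, with 1 motif, is not reported here, up to 3 of the largest called genes of each list at naive 24 h and at 3 weeks, and the 5 genes most like Tap1; Cast, Psmb9 and Tapbpl's shared words were added for overlap. Members and lists were chosen with earlier results of these data known, so their counts beside the all-gene shares are descriptions and not tests. Promoter windows are RefSeq's and gene positions GENCODE M21's.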

Additional observations from a re-analysis of the deposited data

Results flagged for a closer look

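The response to 24 h of fresh IFNγ differed between cells exposed for 3 weeks and naive cells, by a test of the difference itself, for 4 of the 8 genes in each line. In YUMM2.1 the difference on the log2 scale was -4.80 for Tap1, -7.03 for Tap2, -3.88 for Tapbp and -3.35 for Erap1, and in CT26 it was -3.19 for Tap1, -2.23 for Tap2, -2.94 for Tapbp and -2.49 for Erap1 (edgeR quasi-likelihood test, adjusted p between 1.58e-08 and 0.0144). With 1 replicate number left out, 2 to 4 genes were called in YUMM2.1 and 1 to 3 in CT26. The value of Tap2 in YUMM2.1 rests on a 0-week control group without counts and depends on the prior count. The starting levels differed between the compared cells, and their part in these differences was not tested.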

How the results depend on the processing

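Of 48 called values of single genes, 30 kept direction and call under all alternatives run, 0 of 428 alternative values reversed, and 53 lost the call, most of them with 1 replicate number left out. Of 232 values not called, 20 gained a call under at least 1 alternative; signs that changed in values called in neither setting were not counted. With the replicate block, 4 of the 8 genes were called at naive 24 h in both lines, as without it, and 3 in place of 4 at the 24 h rechallenge at 1 week in YUMM2.1. By the rule used, the numbers were not taken as pairs: in 0 of 26 comparisons were all same-numbered correlations over 0.1 (range -0.271 to 0.242). That rule cannot exclude a batch shared by replicate number. With DESeq2, 0 of the 8 genes were called at the 24 h rechallenge at 2 weeks in YUMM2.1 and 0 of the 8 in CT26. Library totals alone gave 0 at the 24 h rechallenge at 2 weeks in CT26 and moved the median gene by 0.22 in the 3-week effect less the naive effect. Without a filter on low counts, YUMM2.1 gave 1 at the 2 h rechallenge at 1 week, 2 at the 2 h rechallenge at 3 weeks and 0 at the 24 h rechallenge at 2 weeks, and CT26 gave 2 at the 24 h rechallenge at 1 week; all genes called at the 24 h rechallenge at 3 weeks were then 27 in YUMM2.1 and 37 in CT26. Also without that filter, Tap2 was called at 3 weeks in YUMM2.1 and at 1 week in CT26, and Tap1 at 2 weeks in CT26. Both were called at 3 against 2 weeks in CT26, and Tap1 was called between the untreated lines. With only the compared groups fitted, CT26 gave 1 at 1 week and 0 at 3 against 2 weeks. That setting gave a value for 44 of the 48 called values. It gave none for Tap2 at naive 24 h and at 2 weeks in YUMM2.1, or for Tap2 between the untreated lines. Tap1 at 1 week in CT26 had none either, so these calls were not tested on their own groups. Leaving out 1 replicate number, the count in YUMM2.1 was 2 to 4 at naive 24 h, 0 to 1 at the 2 h rechallenge at 3 weeks, 2 to 3 at the 24 h rechallenge at 1 week, 0 at that of 2 weeks and 2 to 4 for the 24 h response difference. In CT26 it was 1 to 2 at 1 week, 0 to 2 at the 24 h rechallenge at 2 weeks, 0 to 3 at 3 against 2 weeks, 1 to 3 for the 24 h response difference and 0 to 2 for the 3-week effect less the naive effect. At naive 24 h in CT26 without replicate 3, the 4 genes included Pdia3 in place of Tap2. At 3 weeks in CT26 without replicate 3, Tapbpl and Pdia3 were called lower as well. The untreated YUMM2.1 samples had 2 counts of Tap1 and 0 of Tap2; the causes of the lost calls were not tested. Among the 5 genes most like Tap1, 3 stayed in YUMM2.1 and 5 in CT26 with a prior count of 0.5.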
